A study of Macaca mulatta with 8 samples.

Results

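The transcripts described here encode the proton pump of acidic organelles, the membrane proteins and proteases of the lysosome, the autophagy machinery and the vacuolar protein sorting (VPS) genes, in mature (metaphase II) rhesus macaque oocytes. Members were chosen by gene symbol, with earlier results of these data known, and ATP6V0A4 was named in advance. A probe set belonged if the platform annotation gave it 1 symbol and that symbol started with ATP6V, ATP6AP, LAMP, LAMTOR, GABARAP or MAP1LC3, with ATG or VPS before a digit, or with CTS before a letter. This took 79 of 14132 genes with a symbol, and 131 of 52766 non-control probe sets. Oocytes matured in culture (in vitro, 4 arrays) were set against oocytes matured in the animal (in vivo, 4 arrays). Each array carried RNA of a pool of 4 oocytes after 2 rounds of amplification. The labels give no age, hormone treatment or culture medium and name no donor animals. A p-value therefore reflects how far single pools differed, which may be technical in part. A lower signal in a pool could come from fewer oocytes that carry a transcript or from less of it per oocyte, and these cannot be told apart.

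The vacuolar ATPase is a rotary pump that moves protons into lysosomes, endosomes and secretory vesicles. Its V1 sector splits ATP on the cytosolic side, and its V0 sector, which holds the large a subunit, forms the path for protons through the membrane. Acid activates the cathepsins, the proteases of the lysosome, while VPS proteins bring cargo and membrane to the lysosome and recycle it. In autophagy, ATG proteins build a membrane around cytoplasm, attach ATG8-type proteins (GABARAP and LC3) to it and deliver it to the lysosome. In mice, embryos from oocytes that lack ATG5 arrest early when fertilized by sperm that also lack it.

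Signals are MAS5 values in arbitrary units on a linear scale, and each array was scaled to a 2% trimmed mean of about 150, so a shift of all transcripts together would not be seen. Background was set per array as the level that 95% of 59 unspiked control probe sets stayed under, and it ran from 15.7 to 27.0 over the 8 arrays. Of the 131 member probe sets, 90 lay above background on all 8 arrays and 5 on none, and 64 of the 79 genes had at least 1 probe set above it on every array. The 104 member probe sets (67 genes) whose mean signal over all arrays exceeded 26.0, the median of all probe sets, were tested. The nearest on either side of this limit were ATG16L2 at 25.9 and ATG9B at 24.7, which were not tested, and a VPS36 probe set at 26.6. As a check of the tissue, 14 of 15 oocyte markers on the array were above background everywhere, and their summed signal was 45540 to 56460 in vitro and 50370 to 63820 in vivo. Of 17 granulosa and cumulus markers, 11 were above background on all arrays and 1 (NR5A1) on none, with sums of 22150 to 31210 in vitro and 23330 to 25870 in vivo. INHBA and STAR rose in that list. Of 11 macrophage and blood markers, 2 were above background on all arrays and 1 (S100A9) on none, with sums of 254 to 408 in vitro and 411 to 548 in vivo. Sums of 11 theca, stroma and endothelium markers were 1059 to 1602 in vitro and 1074 to 1282 in vivo, with 3 markers above background on all arrays and 2 (CYP17A1 and KDR) on none.

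A single member passed the test between the groups. ATP6V0A4, which encodes the a4 isoform of the pump's membrane sector, fell in the oocytes matured in culture, and the other 103 tested probe sets did not pass a limma adjusted p of 0.05, adjusted over all 26378 tested probe sets. Over all of these, 0.148% passed in either direction and 0.0493% were lower in vitro. ATP6V0A4 was named with earlier results of these data known, so its passing is not independent support. Leaving out 1 array changed this member count to 0 (in vitro replicate 1 or in vitro replicate 3) or to 2 (in vivo replicate 1, where ATG7 also passed). At an unadjusted p under 0.05 there were 11 members lower in vitro, against 5.61% of all tested probe sets, or 10.6% of the members. These 11 probe sets include ATP6V0A4 and 2 of ATP6V1F, so they are not 11 separate genes. On the higher side there were 3 members (2.88%), against 4.66% of all. Another tested probe set of the gene had the opposite sign for ATG7 and ATP6V0B on the lower side. The same was true of VPS26C and VPS13D on the higher side. The median log2 fold change (in vitro minus in vivo, of log2(signal + 8.2)) was -0.04 over the members and 0.00 over all tested probe sets. For 66 members (63.5%, against 54.8% of all tested probe sets) the 95% interval of the difference lay within a 2-fold change either way. For the remaining 38 a 2-fold difference was not excluded at this number of arrays.

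**Figure D1:**
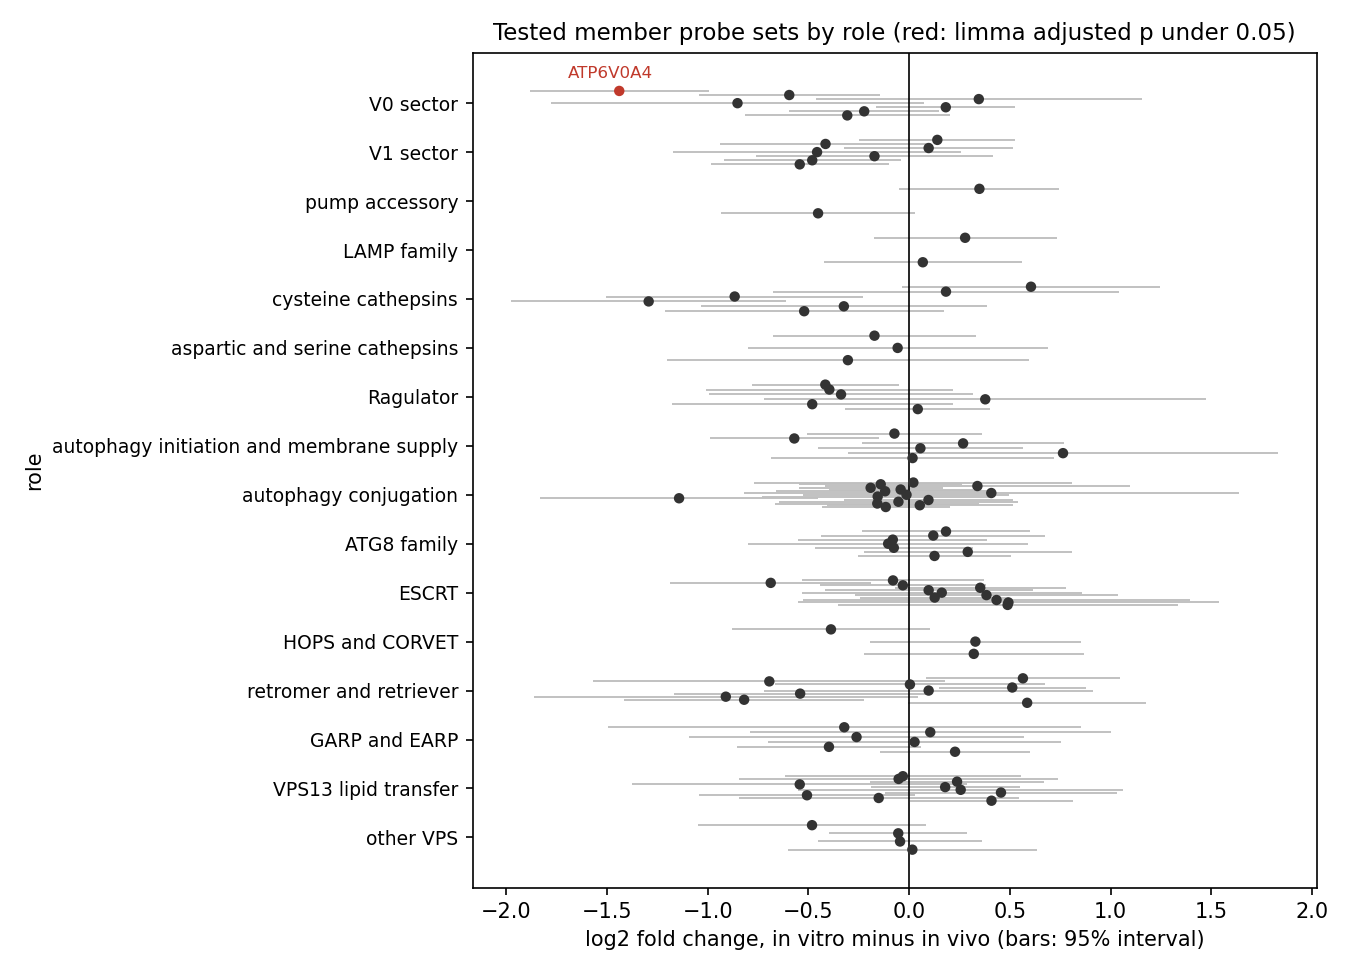
Log2 fold change, in vitro minus in vivo, on the x axis for the 104 tested member probe sets, grouped by role on the y axis. Points are limma estimates and bars their 95% intervals. ATP6V0A4 at -1.44 is the red point, past an adjusted p of 0.05, and the other points lie between -1.29 and 0.76.

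ATP6V0A4 is best known from acid-secreting cells of the kidney and epididymis, where its a subunit places the pump at the cell surface, and human mutations in it cause distal renal tubular acidosis. Its probe set (MmugDNA.40291.1.S1_at) had signals of 148, 221, 181 and 211 in vitro, against 574, 571, 541 and 424 in vivo. All 4 cultured pools lay below the lowest in vivo pool, and every array was above background. The signal averaged 190.2 ± 33 in vitro and 528 ± 70.7 in vivo (SD, n = 4 each). On the scale of log2(signal + 8.2) the cultured pools were at 36.9% of the in vivo level. The log2 fold change was -1.44 ± 0.21 (SE), with a 95% interval of -1.88 to -0.99 and a limma adjusted p of 0.00783. Among all tested probe sets it had the 20th smallest p, and the 4th smallest of those lower in vitro. In an exact two-sided permutation test over 70 assignments of the arrays, p was 0.0286, the smallest they can give. Any probe set whose groups do not overlap reaches this value, as 6.33% of all tested probe sets would. It therefore adds nothing to the lack of overlap. The call ended when in vitro replicate 1 was left out (limma adjusted p = 0.0501), when in vitro replicate 3 was left out (0.051) and with no intensity trend in the variance (0.0853). The log2 ratio of the 3' to the 5' control signal of EEF1A1, a measure of how far amplification reached, was 1.84 to 2.30 in vitro and 1.44 to 3.68 in vivo. The same ratio was larger for beta-actin, at 5.675 to 6.75 in vitro and 5.679 to 7.229 in vivo. For GAPDH it was 4.773 to 5.564 in vitro and 4.367 to 5.627 in vivo. With the EEF1A1 ratio as a covariate the ATP6V0A4 change was as large, at -1.48 (limma adjusted p = 0.003). With the beta-actin ratio it was -1.424 (limma adjusted p = 0.0109). No probe set with 1 symbol named the a1 or a2 isoform gene (ATP6V0A1 and ATP6V0A2), so neither was a member. The same held for ATP6V0C, ATP6V0D1, ATP6V1A, ATP6V1B2, ATP6AP2, LAMP1 and CTSB. The pump and the lysosome are thus covered only in part. Probe sets with several symbols or none listed were not analysed as members.

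Other subunits that acid-secreting cells use were mostly near background. ATP6V1B1, the kidney isoform of the B subunit, was at 4.7, 2, 1.3 and 4.8 in vitro and 24.7, 13, 1.9 and 5.4 in vivo, above background on 1 of 8 arrays. ATP6V1G3, another kidney isoform, was above background on 2 in vitro arrays and 1 in vivo array, at no more than 36.4. These 2 genes and ATP6V1E2, a testis isoform at 13.6 ± 13.2 in vitro and 13.2 ± 9.03 in vivo, were too dim to be tested. ATP6V0D2, the d2 isoform known from osteoclasts and kidney, reached 33.9, 23.1, 43.3 and 42.9 in vitro and 28.4, 15.5, 28.4 and 33.6 in vivo at its tested probe set. Its log2 fold change was 0.35 (limma adjusted p = 0.796). ATP6V1C2, an isoform of the C subunit, was well above background on every array, at 581, 464, 438 and 462 in vitro and 476, 475, 352 and 521 in vivo. The groups overlapped for ATP6V1C2, whose log2 fold change was 0.10 with a 95% interval of -0.32 to 0.52.

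In the rest of the V0 sector none of 6 tested probe sets passed. ATP6V0B, one of the proteolipid subunits of the rotor, was measured by a pair of bright probe sets that differed. At the first (MmuSTS.1489.1.S1_at) it had 2200.5, 1861, 1785 and 2244 in vitro and 1738, 1989, 1796 and 1592 in vivo, and its log2 fold change was 0.18 ± 0.16 (SE). At the second (MmugDNA.31718.1.S1_at) it had 848, 1124, 908 and 862 in vitro and 1995, 1289, 1500.5 and 1018 in vivo, with -0.59 ± 0.21 (SE) and a limma adjusted p of 0.349. In vivo replicate 1 was the highest at the second and the next to lowest at the first. ATP6V0E1, a small membrane subunit, had 2409.6, 2354, 2362 and 1825 in vitro, against 2503, 2510.4, 3291 and 2199.7 in vivo, at its brightest probe set. On the log2 scale its brighter probe sets gave -0.22 and -0.31 (limma adjusted p = 0.699 and 0.695). A dim probe set with the same symbol, but listed under a different Entrez identifier, gave -0.85. It was above background in 2 cultured and 3 in vivo pools and tested only through the in vivo arrays.

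None of the 7 tested V1 probe sets passed, and 5 of the 7 log2 fold changes were negative. ATP6V1F, a subunit of the central shaft, had 366, 520.2, 383 and 418 in vitro and 737, 463, 697 and 591 in vivo, and a log2 fold change of -0.54 ± 0.21 (SE, limma adjusted p = 0.388). Its other probe set had -0.48, and in vivo replicate 2 lay within the in vitro range at both. ATP6V1H, which links the sectors and regulates the pump, had 3009, 2770.1, 2861 and 2674 in vitro and 2101, 2693, 2163 and 3531 in vivo at its brightest probe set, where the difference on the log2 scale was 0.14. A second ATP6V1H probe set gave -0.41, with in vivo values from 1487 to 3754 on both sides of the cultured pools, which ran from 1519.5 to 2109. For ATP6V1E1, a subunit of the peripheral stalk, the cultured pools lay at 634, 690.5, 631 and 623, against 709.6, 930.0, 2056 and 454 in vivo. Its in vivo replicate 3 stood far above the other pools, and the log2 fold change was -0.46 ± 0.33 (SE, limma adjusted p = 0.674). ATP6V1D, part of the rotor, had a log2 fold change of -0.17.

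Of the accessory genes, ATP6AP1, whose product helps to assemble and sort the pump, had 242, 288, 206 and 266 in vitro, against 438, 321, 396 and 248 in vivo, and a log2 fold change of -0.45 (limma adjusted p = 0.514). In vivo replicate 4 lay among the cultured pools. ATP6AP1L, a gene related to it by name, had 425, 446, 381 and 427 in vitro and 293, 333, 312 and 376 in vivo. All cultured pools of ATP6AP1L lay above all in vivo pools, with a log2 fold change of 0.35 and a limma adjusted p of 0.552. Over all 16 tested pump probe sets the median log2 fold change was -0.36, and 11 of 16 were negative, against 49.5% of all tested probe sets. Several of these share a gene. At the brightest tested probe set of each of the 11 genes, 6 log2 fold changes were negative and 5 positive. Without in vivo replicate 3 the median over the 16 probe sets was -0.10, with 11 still negative. Relative to each probe set's mean, the median pump deviation on a log2 scale was 0.41 on in vivo replicate 3 and between -0.20 and 0.04 on the other 7 arrays.

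**Figure D2:**
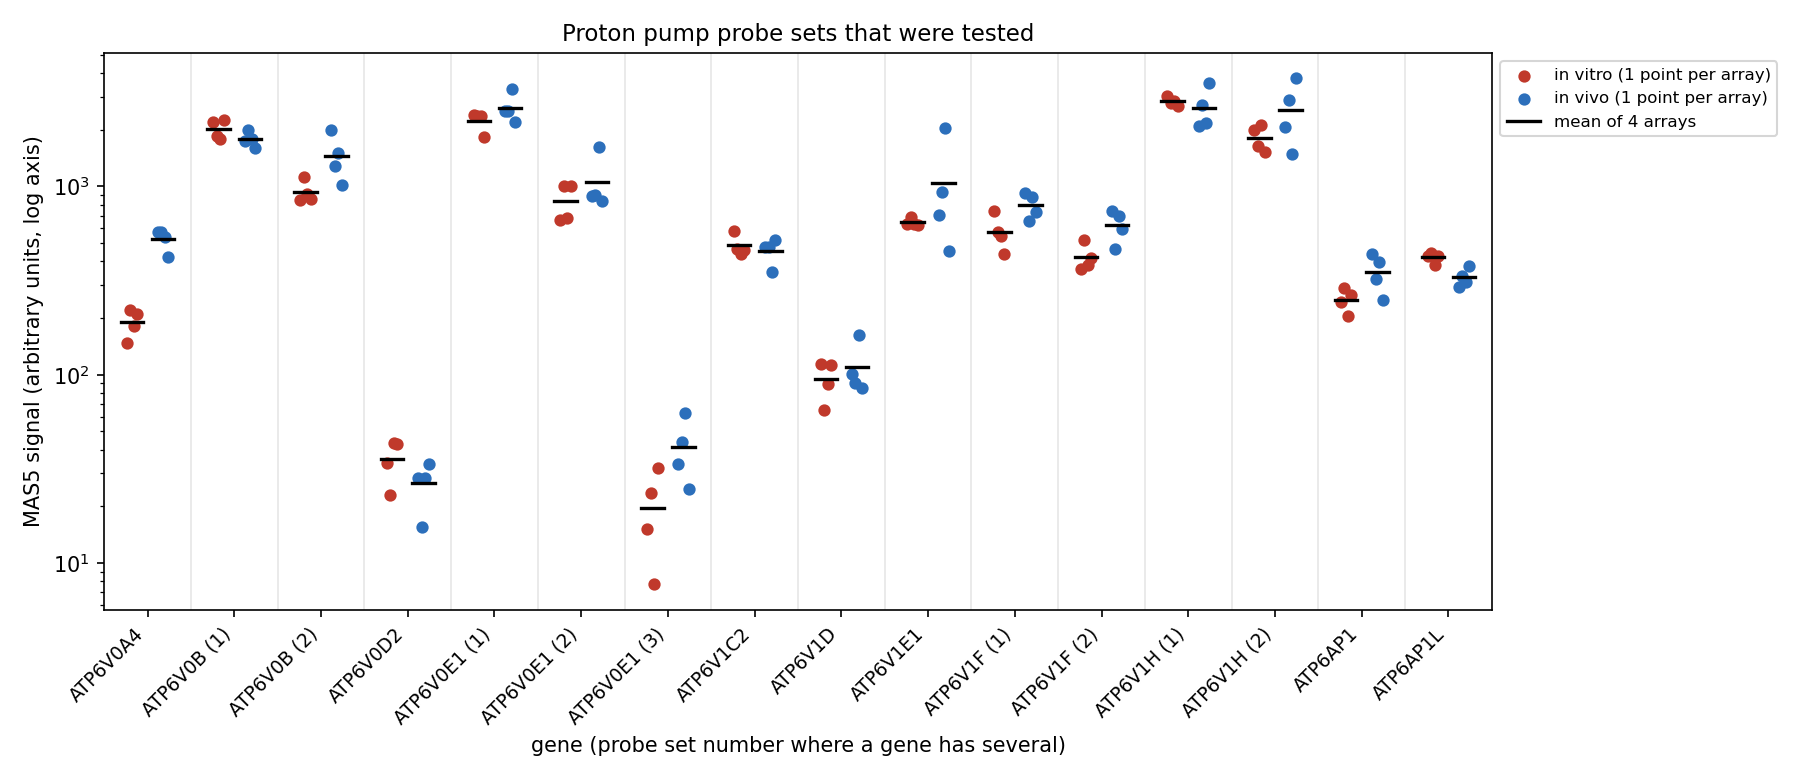
MAS5 signal in arbitrary units on a log axis for the 16 tested proton pump probe sets, with 1 point per array and a bar at the mean of 4 arrays, in vitro left of in vivo. Signals of different probe sets are not on a common scale. ATP6V0A4 shows in vitro points at 148 to 221, all below in vivo points at 424 to 574. The 3 probe sets with the symbol ATP6V0E1, which do not all share an Entrez identifier, show groups that overlap.

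Among lysosomal membrane proteins, LAMP2, a main coat protein of the lysosome that is also needed for chaperone-mediated autophagy, was clearly present. It had 519, 424, 362 and 441 in vitro and 461, 386, 278 and 324 in vivo at the brighter of its probe sets. The groups overlapped, with a log2 fold change of 0.28 and a 95% interval of -0.18 to 0.73, and its other probe set gave 0.07. LAMP3, a marker of mature dendritic cells, was above background on 0 of 8 arrays, at no more than 16.9. LAMP5, a relative found in neurons, averaged 19.5 ± 13.8 in vitro and 21.9 ± 14.7 in vivo, and neither LAMP3 nor LAMP5 was tested.

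None of the 9 tested cathepsin probe sets passed, 7 had negative log2 fold changes, and their median was -0.30. This median was -0.08 without in vivo replicate 1 and -0.05 without in vitro replicate 4, and -0.12 over the 6 probe sets left by a filter at the 75th percentile. With array weights it was -0.14. CTSF, a cysteine protease, had 48.9, 81.7, 63 and 27.5 in vitro, against 206, 132, 139 and 97.9 in vivo, with no overlap. Its log2 fold change was -1.29 ± 0.32 (SE), with a limma adjusted p of 0.181. The adjusted p was 0.046 with the EEF1A1 control ratio as a covariate, 0.33 with no intensity trend, and 0.0778 to 0.441 when 1 array was left out. CTSH, which also trims the ends of peptides as an aminopeptidase, had 112, 117, 68.2 and 81.7 in vitro and 277, 205, 161 and 103 in vivo. For CTSH the lowest in vivo pool fell within the cultured range, with a log2 fold change of -0.87 ± 0.30 (SE, limma adjusted p = 0.337). The sum of macrophage and blood markers, types of cell rich in cathepsins, was lower in every cultured pool, as given above. Of its 11 markers, 10 had a lower mean in vitro and 1 (CD14) a higher one, at 29.6 ± 7.70 in vitro and 26.5 ± 10.4 in vivo. CSF1R and ITGAM, the 2 above background on all arrays, averaged 64.6 ± 14.6 and 96.7 ± 23.2 in vitro, against 70.6 ± 30.2 and 118.0 ± 79.3 in vivo. CD68, a lysosomal protein of macrophages, had 4.7 to 20.6 in vitro, against 119 on in vivo replicate 1 and 15.9 to 31.9 on the other in vivo arrays. PTPRC, which all white blood cells carry, was above background on 1 of 8 arrays. The part of such cells in the cathepsin values was not tested.

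CTSA, CTSD, CTSF, CTSH, CTSK, CTSL, CTSV and CTSZ each had a probe set above background on all 8 arrays. The other cathepsins were near or below background in both groups. CTSS, of antigen-presenting cells, was above background on at most 2 of 8 arrays at any of its 4 probe sets. CTSW, of cytotoxic lymphocytes, and the second CTSH probe set were above it on none, and CTSG, of neutrophils, and CTSE, an aspartic protease, on 1 each. CTSO was above background on 3 arrays. Among the tested cathepsins, CTSV, a close relative of CTSL, had 248, 229, 235 and 224 in vitro, against 116, 260.5, 101 and 557 in vivo. The cultured pools of CTSV lay within a narrow range that sat inside the wide in vivo range, and its log2 fold change was 0.18 ± 0.40 (SE). CTSL, a broad endoprotease, had 124, 87.3, 117 and 168 in vitro and 86.8, 48.6, 124 and 65 in vivo, with a log2 fold change of 0.60 (limma adjusted p = 0.512). CTSD, the main aspartic protease of lysosomes, had 415, 333, 256 and 221 in vitro and 437, 338, 306 and 283 in vivo, with -0.17 on the log2 scale at this probe set and -0.30 at a dimmer one. CTSA, a carboxypeptidase that also protects other lysosomal enzymes, had 221, 236, 152 and 197 in vitro and 341, 140.2, 359 and 105 in vivo, and its log2 fold change of -0.06 became 0.01 with median centring. The log2 values for CTSK and CTSZ were -0.32 and -0.52. For cathepsins that were tested, the median within-group SD on the log2 scale was 0.36 in vitro and 0.54 in vivo.

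**Figure D3:**
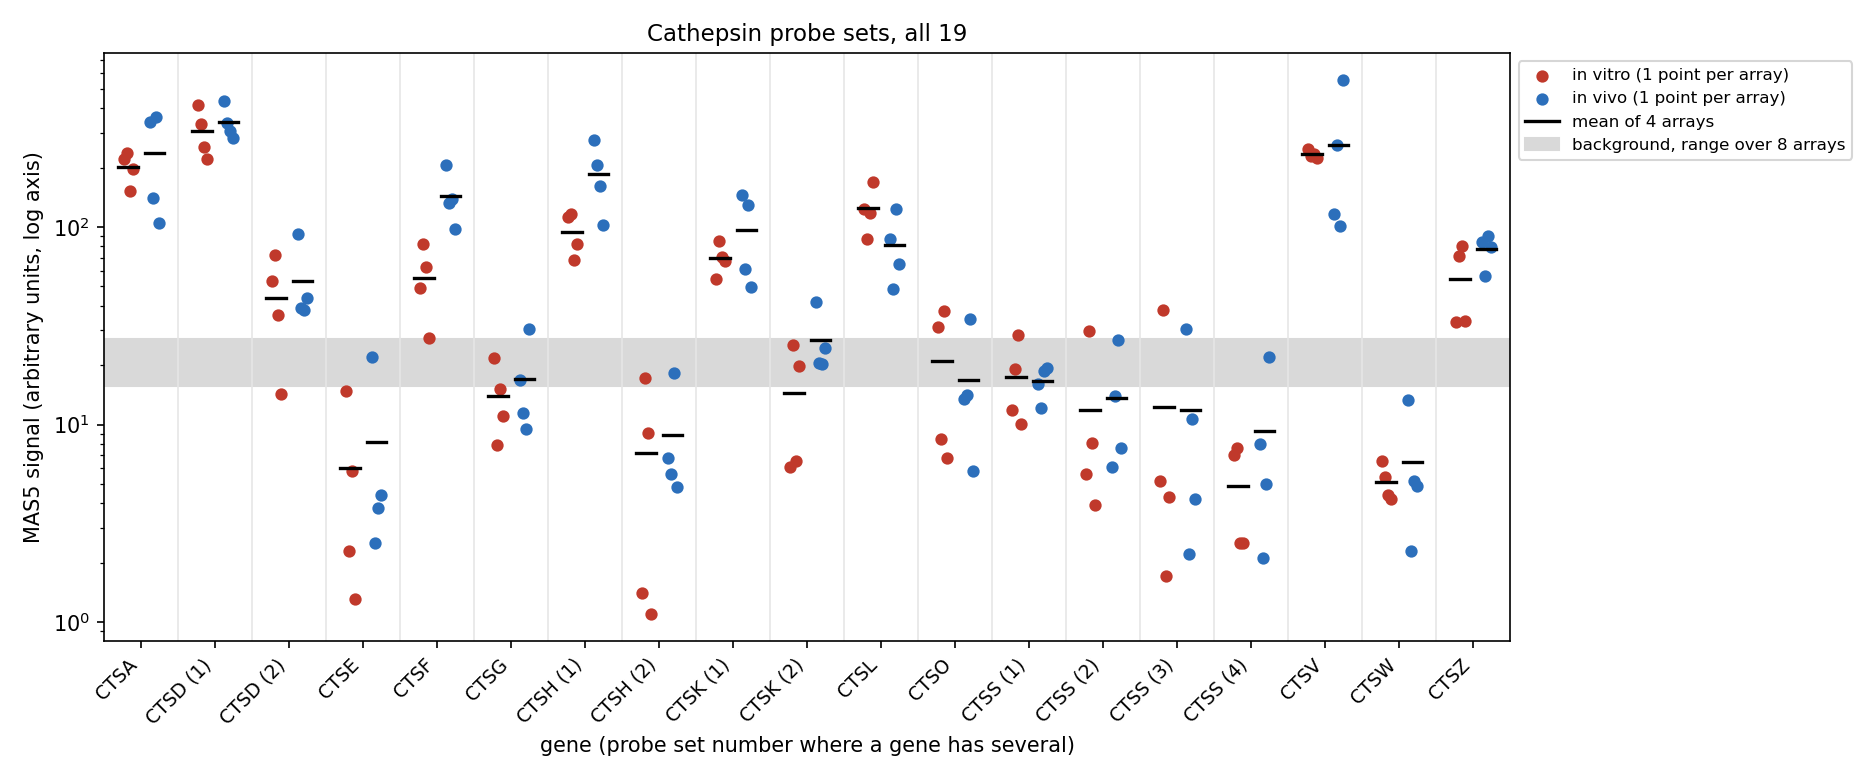
MAS5 signal in arbitrary units on a log axis for all 19 cathepsin probe sets, with 1 point per array and a bar at the mean of 4 arrays, in vitro left of in vivo, and the range of the background over the arrays (15.7 to 27.0) in grey. Signals of different probe sets are not on a common scale. CTSF shows in vitro points at 27.5 to 81.7 and in vivo points at 97.9 to 206, and the CTSS and CTSW points lie mostly in or below the grey band.

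Ragulator is the complex that anchors the Rag GTPases, and through them the growth kinase mTORC1, to the lysosome. None of its 6 tested probe sets passed, and their median log2 fold change was -0.37. Without in vivo replicate 3 it was -0.22, and without in vitro replicate 2 it was -0.24. LAMTOR5 had 606, 636, 649.9 and 669 in vitro, against 924, 808, 951 and 757 in vivo. The cultured pools lay close together and all below the in vivo pools, with a log2 fold change of -0.42 ± 0.17 (SE, limma adjusted p = 0.415). LAMTOR3, a scaffold subunit, had 2689, 3216, 2394 and 2892 in vitro and 3091, 2742, 2887 and 2169 in vivo, and a log2 fold change of 0.04 whose sign turned to -0.05 with quantile normalization. LAMTOR4 had 199, 214, 139.8 and 193 in vitro and 284, 177, 551 and 164 in vivo. Its highest value came from in vivo replicate 3, and the log2 fold change of -0.48 was -0.13 without that array. A second, dim probe set, tested only through the in vitro arrays, gave 0.38. LAMTOR1, which holds the complex on the membrane, and LAMTOR2 had -0.34 and -0.40.

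None of the 28 tested autophagy probe sets passed, with a median log2 fold change of -0.03, 15 negative and 13 positive. For 24 of the 28 the 95% interval lay within 2-fold either way. In the initiation step, ATG101, a subunit of the kinase complex that starts autophagy, had 324, 298, 288 and 311 in vitro, against 391.2, 406, 470.1 and 583 in vivo. No cultured pool of ATG101 reached an in vivo pool, and its log2 fold change was -0.57 ± 0.20 (SE, limma adjusted p = 0.336). ATG13, its direct partner, had 160.5, 168, 139 and 160.2 in vitro and 172, 151, 166 and 172 in vivo at the brighter tested probe set, with -0.07 on the log2 scale and a 95% interval of -0.51 to 0.36. A dimmer ATG13 probe set, near background and tested only through the in vitro arrays, had 0.76 (limma adjusted p = 0.64). ATG9A, the membrane protein of the vesicles that seed autophagosomes, had 0.27, and the lipid transfer proteins ATG2A and ATG2B had 0.06 and 0.02.

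Conjugation begins with ATG7, the enzyme that activates both ubiquitin-like proteins of the pathway. At 1 of its 3 probe sets (MmugDNA.27164.1.S1_s_at) ATG7 had 320.5, 359, 286 and 247 in vitro, against 336, 649.7, 1377 and 675 in vivo. In vivo replicate 1 lay within the cultured range and the other in vivo pools above it. The log2 fold change was -1.14 ± 0.32 (SE, limma adjusted p = 0.243), and it ran from -1.47 to -0.80 when 1 array was left out. It passed in 1 of these 8 fits, without in vivo replicate 1 (limma adjusted p = 0.0407), and the adjusted p reached 0.492 in the others. At the other probe sets the groups overlapped, with 787, 1031, 1089.8 and 867 in vitro and 969.6, 841, 1242 and 1121 in vivo at one and 401, 307, 444 and 328 in vitro and 283, 385, 310.2 and 455 in vivo at the other. Those gave log2 fold changes of -0.14 and 0.05. ATG3, which attaches ATG8-type proteins to lipid, had 2916, 2988, 2989.6 and 2859 in vitro and 2763, 3189.8, 3267 and 3568 in vivo, with -0.12 on the log2 scale and a 95% interval of -0.43 to 0.20. ATG5, part of the ligase that directs ATG3, had 952, 896, 1123 and 1015 in vitro and 1031, 1213, 1240.4 and 1071 in vivo at its brightest probe set, and its 3 probe sets gave -0.19, -0.12 and -0.16. ATG16L1, which completes that ligase, had -0.16, and ATG10, which attaches ATG12 to ATG5, had 0.34. The proteases ATG4A, ATG4B and ATG4C, which trim ATG8-type proteins, had -0.05, -0.01 and 0.10 at their brightest probe sets.

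The ATG8 family, the proteins that coat the autophagosome membrane and bind cargo receptors, had the narrowest range of differences among roles with more than 4 tested probe sets, from -0.10 to 0.29 over 7 probe sets of 4 genes. GABARAPL2 had 3381, 3129, 3222 and 2789 in vitro and 2941, 3436, 2569.5 and 4518 in vivo at its brighter probe set, with -0.08 on the log2 scale, and 0.13 at the other. With the EEF1A1 control ratio as a covariate the first of these was 0.02. MAP1LC3B, which encodes the LC3 protein most used to count autophagosomes, had 338, 306, 189 and 292 in vitro and 233, 206, 298 and 173 in vivo at the probe set with the smallest p and 0.29 on the log2 scale. Its brighter probe sets had 0.12 and -0.08. GABARAPL1 had 909.8, 704, 609 and 677 in vitro and 579, 623, 561 and 782 in vivo, with 0.18, and GABARAP had 609.6, 985, 714 and 848 in vitro and 1422, 688, 1233 and 402 in vivo, with -0.10 and a wide in vivo spread. All 7 intervals of this family lay within 2-fold either way.

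None of the 43 tested VPS probe sets, for 25 genes, passed, and their median log2 fold change was 0.03. Retromer, which returns receptors such as the mannose 6-phosphate receptors from endosomes, and the related retriever complex showed values in both directions. VPS35, the backbone of retromer, had 1671, 1864, 1224 and 1755 in vitro, against 1449, 993, 1318 and 729 in vivo. In vitro replicate 3 of VPS35 lay within the in vivo range, and the log2 fold change was 0.56 ± 0.23 (SE, limma adjusted p = 0.402). VPS35L, the corresponding subunit of retriever, was dimmer, at 38.3, 60.5, 54 and 40.8 in vitro and 75, 82.2, 128 and 83.7 in vivo. Each cultured pool of VPS35L lay below each in vivo pool, with -0.82 ± 0.28 (SE, limma adjusted p = 0.328). VPS26C, another retriever subunit, had 911, 1061, 859.7 and 1053 in vitro and 626, 697, 726 and 657 in vivo at its brighter probe set. There the cultured pools were all higher, with 0.51 ± 0.17 (SE, limma adjusted p = 0.323), while the dimmer probe set gave -0.91, with 6.3, 42.1, 37 and 29.7 in vitro and 90.9, 45, 67.5 and 30.8 in vivo. VPS29, shared by both complexes, had a log2 fold change of 0.00. The retromer subunits VPS26A and VPS26B had 0.10 and -0.69 at their brightest probe sets, where in vivo replicate 3 reached 543 for VPS26B against 115 to 138 on the other in vivo arrays and 76.3 to 166 in vitro.

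The ESCRT machinery sorts proteins into vesicles inside endosomes and cuts membranes. VPS4A, the ATPase that takes the ESCRT filament apart, had 161, 212, 167 and 169 in vitro, against 266, 297, 415 and 212 in vivo. In vivo replicate 4 lay just below the highest cultured pool of VPS4A, and the log2 fold change was -0.69 ± 0.23 (SE, limma adjusted p = 0.33). Its paralogue VPS4B had 611, 827, 781 and 962 in vitro and 726, 956, 729.5 and 817 in vivo, with -0.03 and a 95% interval of -0.44 to 0.38. Of the ESCRT-I subunits, VPS37C had 384, 366, 356 and 411 in vitro and 239, 368, 306 and 279.8 in vivo, with 0.35 at this probe set and 0.38 at another. VPS37B had 2734, 2569, 2751 and 1907 in vitro and 3523, 2858, 1791 and 1561 in vivo, with 0.10, which became -0.02 without in vivo replicate 3. VPS37A, VPS37D and VPS28 had 0.13, 0.43 and -0.08, and the ESCRT-II subunit VPS36 had 0.16, 0.49 and 0.49 at 3 dim probe sets. The VPS36 probe sets at 0.49 were tested only through the in vitro arrays.

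Tethering complexes hold endosomes and lysosomes together before they fuse. VPS33B, of the VPS33 family of fusion proteins, had 155, 133, 143 and 101 in vitro and 184, 188, 196 and 136 in vivo, with a log2 fold change of -0.39. VPS8, a subunit of the CORVET tether of early endosomes, had 186, 179, 209.8 and 252 in vitro and 144, 180.0, 114 and 228 in vivo, with 0.33, and VPS39, a subunit of the HOPS tether of lysosomes, had 0.32. In the GARP complex, which receives vesicles at the Golgi, VPS54 had 2331, 2249.5, 1823 and 2487 in vitro and 2287, 1946, 1586 and 1785 in vivo at its brightest probe set, with 0.23. A second VPS54 probe set gave -0.40, with 176, 297, 244 and 236 in vitro and 328, 277, 298 and 347 in vivo. VPS53 had -0.32 at a probe set near background, where in vitro replicate 4 was at 1.5 and the other cultured pools at 29.3 to 51.9. Without in vitro replicate 4 this value was 0.25.

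The VPS13 proteins carry lipids between membranes that touch. VPS13D had 440.1, 425, 388 and 406 in vitro, against 370.4, 301, 266 and 313 in vivo. The cultured pools were all higher at this VPS13D probe set, with 0.41 ± 0.19 (SE, limma adjusted p = 0.485), and 2 further probe sets gave 0.24 and -0.54. The probe set at -0.54 was dim and tested only through the in vivo arrays. VPS13A had 394, 193, 268 and 322 in vitro and 571, 392.3, 387 and 321 in vivo, with -0.51 (limma adjusted p = 0.511), and a dimmer probe set had 0.26. VPS13B had 944, 853, 1022 and 946 in vitro and 897, 739.6, 743 and 956 in vivo at the brightest of 4 tested probe sets, with 0.18, and VPS13C had -0.05. Of the genes that carry a VPS symbol for other reasons, VPS72 encodes a nuclear chromatin protein. It had 3145, 2944, 1798 and 2224 in vitro and 2392, 2827, 2315 and 2685 in vivo, and its log2 fold change of -0.04 became 0.02 with median centring. VPS9D1, for a protein with a VPS9 domain, had 2738, 2265, 2979 and 3085 in vitro and 2576, 3095, 2779.6 and 2991 in vivo at its brightest probe set, with -0.05, which became 0.01 with median centring. A dim VPS9D1 probe set separated the groups, at 49.1, 55.5, 50.1 and 44.7 in vitro and 92.3, 68.1, 74.6 and 59.3 in vivo, with -0.48 (limma adjusted p = 0.566).

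At 9 of the 104 tested member probe sets (8.65%) the groups did not overlap, against 6.33% of all tested probe sets. On the lower side there were 6, ATP6V0A4, CTSF, VPS35L, ATG101, VPS9D1 and LAMTOR5, or 5.77% against 3.15% of all. The 3 on the higher side, ATP6AP1L, VPS13D and VPS26C, were 2.88% against 3.18% of all. Apart from ATP6V0A4, none of these 9 passed the adjusted threshold.

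**Figure D4:**
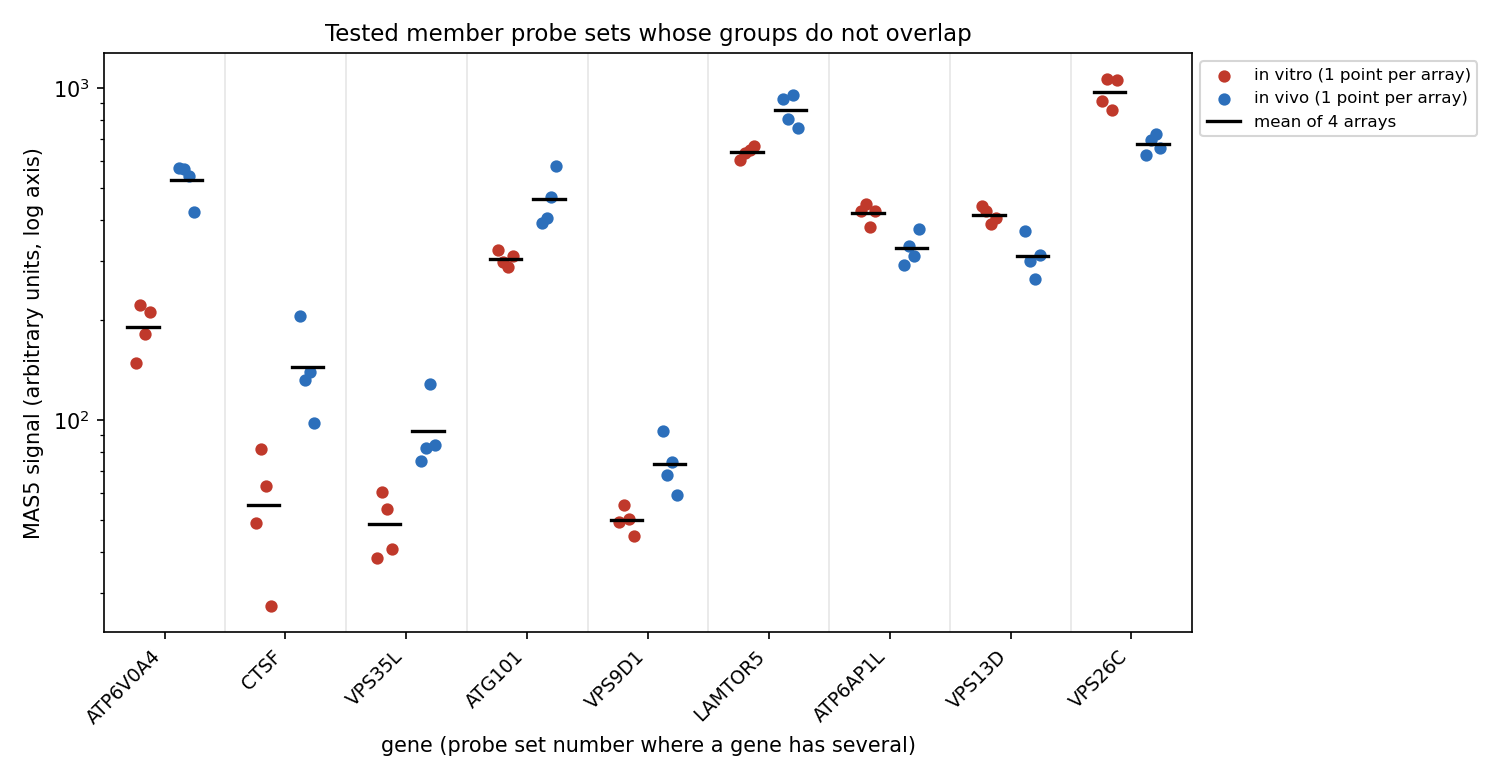
MAS5 signal in arbitrary units on a log axis for the 9 tested member probe sets whose groups do not overlap, ordered by log2 fold change, with 1 point per array and a bar at the mean of 4 arrays, in vitro left of in vivo. Signals of different probe sets are not on a common scale. The gap between the groups is widest for ATP6V0A4, between 221 in vitro and 424 in vivo, and VPS13D shows 388.5 in vitro beside 370.4 in vivo.

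How far a gene's value depended on its probe set could be read from the 26 genes with several tested probe sets. The log2 fold changes of a gene had 1 sign throughout in 11 of these genes and both signs in 15, and they differed by more than 1 in VPS26C and ATG7. In ATP6V1F, ATG5, ATG3, ATG4C and VPS37C the probe sets differed by less than 0.1. ATP6V0A4 was 1 of 41 genes with a single tested probe set, so its change has no second probe set beside it.

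**Figure D5:**
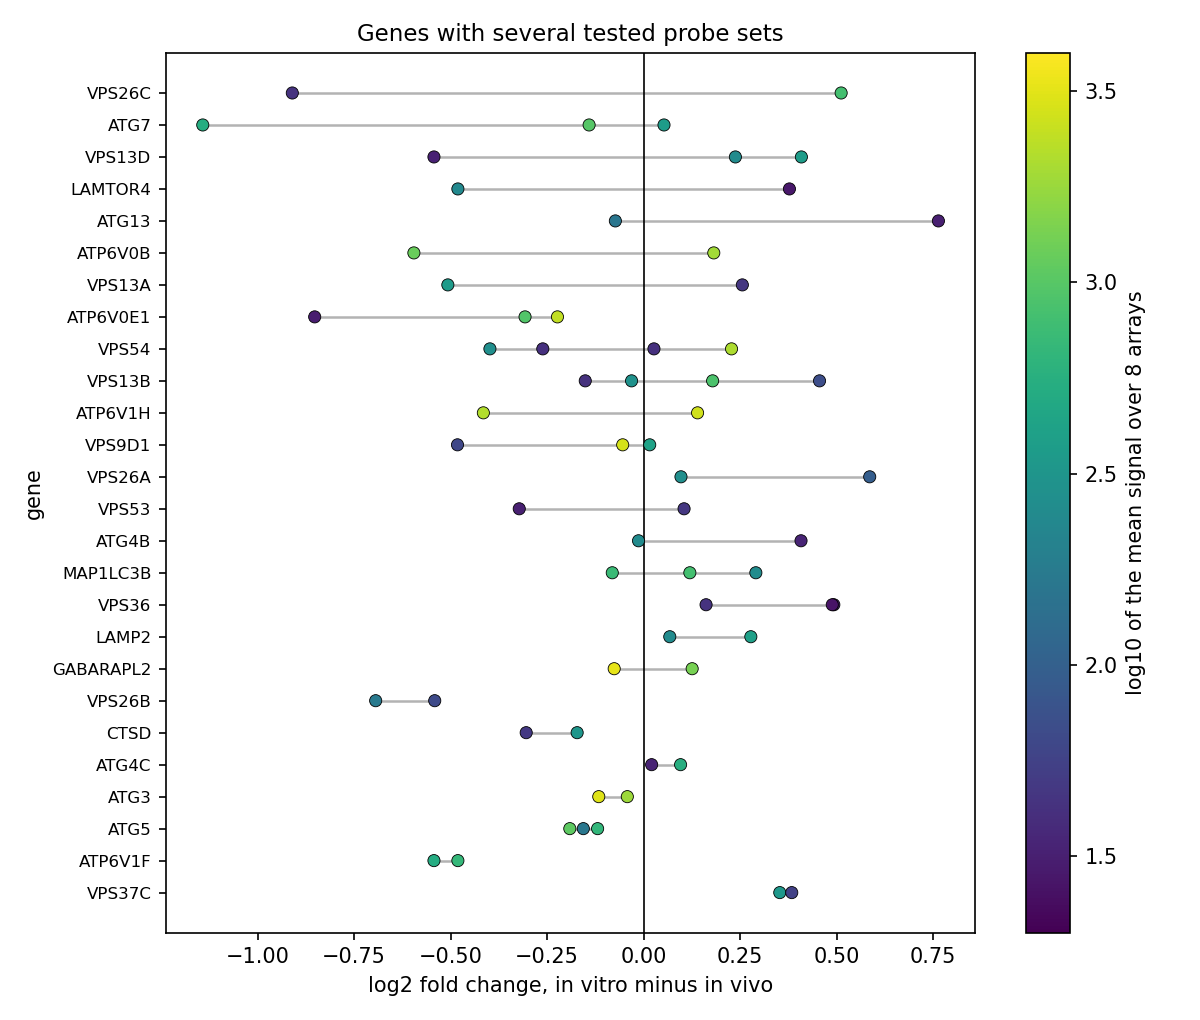
Log2 fold change, in vitro minus in vivo, on the x axis for every tested probe set of the 26 member genes with several, 1 row per gene, ordered by the range and coloured by the log10 mean signal over 8 arrays. VPS26C spans -0.91 to 0.51 and ATG7 -1.14 to 0.05, while the 3 ATG5 probe sets lie between -0.19 and -0.12.

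The members varied more among the in vivo pools than among the cultured ones, as did the array as a whole. The median within-group SD on the log2 scale was 0.27 in vitro and 0.35 in vivo over the members, against 0.32 in vitro and 0.43 in vivo over all tested probe sets. In vivo replicate 3 was the highest of its group at 36 members (34.6%, against 27.5% of all tested probe sets) and in vivo replicate 4 the lowest at 41 (39.4%, against 27.8%). Per array, the median member deviation from the probe set mean lay between -0.06 and 0.09 on the log2 scale.

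Other genes of the pathway were taken from 3 lists that do not follow the symbol rule, with 66 genes tested at their brightest probe set. None passed by limma, with a median log2 fold change of 0.03, 30 negative and 36 positive. Of the 66, 10 had an unadjusted p under 0.05, a larger share than the 10.3% over all tested probe sets. These shares are not alike, since the 66 are the brightest probe set of each gene and the whole includes dimmer ones. TMEM175, described below, was 1 of the 10. TMEM175 and GALC passed when in vivo replicate 4 was left out, which made the count 2. Of 15 genes of the lysosomal membrane and its traffic, TMEM175, an ion channel that balances the pump by letting protons or potassium through the lysosomal membrane, had 14.5, 17.5, 37 and 4.5 in vitro, against 178, 73.4, 99.5 and 50.2 in vivo. All cultured pools of TMEM175 were lower, and 1 of the 4 was above background, against all 4 in vivo pools. Its mean in vitro, 18.4, lay below the limit for testing, so it was tested only through the in vivo arrays. The fitted log2 fold change of -2.04 (limma adjusted p = 0.105) therefore rests on in vitro signals that were mostly not measured above background. CLN3, a lysosomal membrane protein lost in Batten disease, and LAPTM4B had -0.71 and -0.25 at their brightest probe sets, and the other 2 tested CLN3 probe sets gave -0.37 and 0.12. Of 22 lysosomal hydrolases and activators, GALC, which breaks down galactosylceramide, had 2146, 2533, 2169 and 3127 in vitro and 4246, 4918, 7019 and 2436 in vivo. Its log2 fold change was -0.82 ± 0.26 (SE, limma adjusted p = 0.299), and its other 3 tested probe sets gave -0.62, -0.90 and -0.20. GAA, the glycogen-degrading glucosidase, and GLA, the alpha-galactosidase, had -0.92 and -0.55 (limma adjusted p = 0.355 and 0.455).

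Of 29 genes of autophagy and nutrient sensing, BECN1, a subunit of the lipid kinase complex that marks sites of autophagosome formation, had 3134, 2884, 2917 and 2902 in vitro, against 2468, 2486, 1997 and 1579 in vivo. The cultured pools of BECN1 all lay above the in vivo pools, with 0.49 ± 0.17 (SE, limma adjusted p = 0.349), and its other probe set gave 0.22. TFE3, a transcription factor that switches on lysosomal genes, had 588, 504, 456 and 422 in vitro and 636, 808, 639.9 and 648 in vivo. At that probe set TFE3 was lower in all cultured pools, with -0.47 ± 0.19 (SE, limma adjusted p = 0.402), while the other 2 tested gave -0.02 and 0.27. WDR45, a lipid-binding protein of early autophagosomes, had -0.82 (limma adjusted p = 0.415).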

How the data were processed

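Total RNA of oocyte pools was amplified, labelled with biotin and hybridised to a single-colour Affymetrix rhesus array, per the labels' protocols. The deposited intensity values are linear signals made with MAS5 (version not given in the sources used here), per the submitters' processing notes. Of 52766 non-control probe sets, 24956 had 1 symbol, 361 several and 27449 none listed. The Entrez identifiers of 129 of the 131 members were in the RefSeq table, and no symbol changed.

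Before taking log2, 8.2 (the 25th percentile of the signals) was added to each value. The 26378 probe sets with a mean signal above the median entered limma 3.58.1 (R 4.3.3, moderated variances that follow the intensity) for in vitro over in vivo, with Benjamini-Hochberg adjustment at 0.05. The fit was tested on simulated data. The number of arrays limits the precision.

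The members, lists and naming rule were chosen with earlier results of these data known. The rule named each member past the threshold and, per role, the 2 with the smallest unadjusted p and the brightest, plus 3 genes per pathway list. Other members are given to account for the rest and were picked with values in view. Alternatives changed the pseudocount, filter, normalization, variance model, weights, covariates and arrays. No sequences or coordinates were used.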

Additional observations from a re-analysis of the deposited data

Results flagged for a closer look

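A single array stood apart within its group in 2 of 84 groups of 4 arrays examined, by the gap to the nearest array divided by the range of the group, set against the 95% critical value of Dixon's test. Chance flags about 1 in 20 such groups. ATP6V0E1 at its brightest probe set was at 1825 on in vitro replicate 4, and the other in vitro arrays were at 2409.6, 2354 and 2362, a ratio of 0.916. ATG13 at its dim probe set was at 1.8 on in vivo replicate 3, and the other in vivo arrays were at 30.5, 35.6 and 26.4, a ratio of 0.84.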

How the results depend on the processing

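Over all tested probe sets 39 passed, and this count was 7 with no intensity trend, 88 with array weights, 302 with the EEF1A1 control ratio as a covariate, 62 with the beta-actin ratio, and 19 to 104 when 1 array was left out. The share of calls higher in vitro was 66.7% in the reported fit, 40.7% with the EEF1A1 ratio, 54.8% with the beta-actin ratio and 45.2% without in vivo replicate 4. The count of members was 0 with no intensity trend, 2 with the EEF1A1 ratio (ATP6V0A4 and CTSF) and 0 to 2 when 1 array was left out. ATP6V0A4 stayed at -1.439 with no intensity trend (limma adjusted p = 0.0853) and between -1.538 and -1.328 when 1 array was left out. The count of other pathway genes was 2 with the EEF1A1 ratio and 0 to 2 when 1 array was left out, GALC and TMEM175 in both cases. The cause was not tested for any of these.

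Signs turned for LAMTOR3 with quantile normalization (-0.048) and the EEF1A1 ratio (-0.010), for CTSA with median centring (0.010) and array weights (0.097), for VPS72 (0.022) and VPS9D1 (0.013) with median centring, and for GABARAPL2 with the EEF1A1 ratio (0.019). When 1 array was left out, values ran from -0.366 to 0.2 for CTSA, -0.138 to 0.651 for CTSV, -0.162 to 0.106 for VPS72, -0.09 to 0.3 for VPS37B, -0.195 to 0.076 for GABARAPL2, -0.061 to 0.115 for LAMTOR3, -0.11 to 0.038 for VPS9D1 and -0.628 to 0.249 for VPS53. Of 857 values of the 41 named member results other than ATP6V0A4, none of which passed in the reported fit, 833 kept their direction and side of the threshold.

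Same-numbered arrays did not deviate together over the tested probe sets (correlations of -0.0448 to 0.011). The labels do not say whether the numbers pair the samples. The correlations cannot settle it, since a shared effect that is small against the spread of the pools would not show. With the replicate block, 44 probe sets passed and ATP6V0A4 had -1.439 with a limma adjusted p of 0.0302. Signals near background limit what can be read from the dim members, tested or not.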

Other observations

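Of the members too dim to be tested, 3 are given here, picked after their values were seen and with no test. ATG9B, a relative of the autophagy membrane protein ATG9A, had 42.7, 45.3, 43.2 and 20.9 in vitro, against 4.2, 19.2, 19.8 and 2.3 in vivo. Every cultured pool of ATG9B lay above every in vivo pool. A VPS53 probe set (MmugDNA.35716.1.S1_s_at) had 2.2, 2.2, 4.6 and 2.3 in vitro, against 51.6, 29.7, 52.4 and 9 in vivo. No cultured pool was above background there, against 3 in vivo pools. The in vivo mean of this probe set, taken on the log2 scale used for the tests, was 1.31 times the in vitro background. A brighter VPS53 probe set had 48.8, 38.6, 41.6 and 49.6 in vitro and 45.6, 44.5, 12.4 and 90.0 in vivo, with groups that overlapped. ATG16L2, a relative of ATG16L1, had 10.3, 10, 9.3 and 15.6 in vitro and 41.6, 5, 45.8 and 69.6 in vivo. The lowest in vivo pool of ATG16L2 lay below the cultured ones. ATG16L2 was above background in 3 in vivo pools and no cultured pool. Its in vivo mean, taken on the same log2 scale, was 1.36 times the in vitro background. These ratios set the in vivo mean against the lowest signal counted as above background on each in vitro array. They carry no interval, so they are not lower limits of a difference.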
